A study of Mus musculus with 18 samples.

Results

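The comparison described here is the genotype difference in the step from late gestation (embryonic day E18.5) to early postnatal life (day P2) in cortical interneurons of the mouse. For each gene it is the change from E18.5 to P2 in Htr3a-KO animals minus the same change in controls, on the log2 scale. A value above 0 means that the level moved further upward, or less far downward, in Htr3a-KO than in control. All probe sets that the array annotation assigned to a single gene belonged to it, which were 34945 of 45101 probe sets. These probe sets named 18193 genes, and 14292 of them had a probe set past the filter on dim signals and were tested, with 1 probe set for each gene.

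The study profiled interneurons derived from the caudal ganglionic eminence (CGE), sorted by flow cytometry from dissociated cortex, at E14.5, E18.5 and P2. Control animals carried the GAD65-GFP reporter, and Htr3a-KO animals carried the same reporter together with loss of Htr3a. The comparison used 12 of the 18 arrays, with 3 arrays in each of the groups E18.5 control, E18.5 Htr3a-KO, P2 control and P2 Htr3a-KO; the E14.5 arrays entered the fit only through the estimate of the spread. Each array held RNA of at least 4 brains pooled from 1 litter, and the 3 arrays of a group came from different litters. Cells at E18.5 were described as entering the cortical plate and those at P2 as settling in the cortex. GFP marks cells in which the GAD65 promoter is active and is not restricted to CGE-derived cells. The labels give neither the allele that removes Htr3a nor the sex of the animals. RNA was measured on Affymetrix mouse genome arrays, and values are log2 intensities after robust multi-array averaging (RMA).

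Htr3a encodes a subunit of the ionotropic serotonin receptor, a cation channel opened by serotonin that marks most CGE-derived interneurons. These cells migrate tangentially from the ventral forebrain, turn into the cortical plate around birth and then settle into layers, mostly the superficial ones. Semaphorins, plexins and chemokines steer that migration, while the expression of receptors, channels and cell adhesion molecules changes as the cells mature.

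Over the genes tested, arrays of the same group correlated at 0.9743 to 0.9945 and arrays of different groups at 0.9189 to 0.9936. The arrays also held signal for genes listed for other cell types. The genes Gad1 and Gad2 encode the enzymes that make GABA, and Gad1 read 10.93 to 11.86 on the 12 arrays. The mean over 25 measured CGE markers was 8.53 to 9.33 per array. Over 19 measured genes of the excitatory lineage the mean was 7.31 to 9.43. Over 20 of microglia and macrophages it was 6.32 to 9.74, against array medians of 6.36 to 6.46. How much of this signal came from cells outside the sorted class was not tested. In bulk samples of this kind, fewer cells of a type and less RNA per cell cannot be told apart. The difference between 3' and 5' probe sets of Gapdh, a measure of RNA integrity, was 1.74 ± 0.10 in E18.5 controls, 1.95 ± 0.17 in E18.5 Htr3a-KO, 1.94 ± 0.23 in P2 controls and 1.93 ± 0.09 in P2 Htr3a-KO (SD, n = 3 each). Formed like the genotype difference, this measure gave -0.22 for Gapdh and -0.44 for actin, and its part in the results below was not tested.

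Htr3a itself was read first. In E18.5 controls its probe set read 9.64, 10.79 and 10.58, and in P2 controls 8.61, 8.64 and 9.11. Htr3a-KO arrays read 6.61, 6.79 and 7.09 at E18.5 compared with 6.81, 7.01 and 6.71 at P2. No Htr3a-KO array reached the lowest control value, and the Htr3a-KO groups of both ages overlapped. The level fell by 1.55 in controls between the ages (adjusted p = 8.34e-04, limma), while the change in Htr3a-KO was 0.01 (adjusted p = 0.975). The genotype difference in the step was 1.56 (SE 0.37, 95% interval 0.79 to 2.34, adjusted p = 0.644), so it did not pass. The genotype effect on Htr3a passed the test at both ages, at -3.51 before birth and -1.94 after it. Where its 1 probe set lies relative to the deleted sequence is not given in the sources used here.

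No gene passed the test of the genotype difference. With limma across all 14292 genes, 0 genes were called at an adjusted p under 0.05 (0%), and the smallest adjusted p was 0.644, shared by 224 genes. Without adjustment 1033 genes had a p under 0.05 (7.23%), of which 651 were above 0 (4.55%) and 382 below 0 (2.67%); 715 genes would lie under that threshold with no difference anywhere. The smallest unadjusted p was 9.97e-05, whereas 3.5e-06 was needed for 1 gene to be called. Each of the 34945 probe sets fitted on its own likewise gave 0 calls (0%), with a smallest adjusted p of 0.287 and 3236 probe sets at an unadjusted p under 0.05.

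The arrays bounded the difference in measured intensity for most genes. The median 95% interval reached 0.44 to either side of the estimate. For 12080 genes (84.5%) the whole interval lay between -1 and 1, which excludes a 2-fold difference in intensity between the steps. These intervals hold for each gene alone and are not adjusted for the number of genes. How far intensities near background follow the amount of RNA was not tested, so a narrow interval there does not bound the RNA. The median difference over all genes was 0.01, and the 5th to the 95th percentile ran from -0.49 to 0.39. An estimate above 1 was found for 25 genes and one below -1 for 105, so the tail was longer on the lower side even though 50.8% of genes lay above 0 and 49.1% below.

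The steps of both genotypes resembled each other across genes. Between E18.5 and P2, 2818 genes passed in controls (19.7%), 1424 of them higher (9.96%) and 1394 lower (9.75%) at P2. In Htr3a-KO 4070 genes passed (28.5%), 1929 higher (13.5%) and 2141 lower (15%). Of these, 2009 passed in both genotypes and in the same direction, which is 71.3% of the control calls and 49.4% of the Htr3a-KO calls, and 0 genes passed in opposite directions. The steps share no arrays, and across genes, which are not independent replicates, they correlated with r = 0.83. Among the 2009 genes the median size of the step was 0.71 in controls and 0.75 in Htr3a-KO. The median size of the difference between them was 0.13, and the interval excluded a 2-fold difference in intensity for 1659 (82.6%). These genes were taken because both steps passed, which favours large steps and a small difference. Over all genes the difference had an SD of 0.30, against 0.52 for the step in each genotype. The 809 genes that passed in controls and not in Htr3a-KO, and the 2061 for which the reverse held, are not shown to differ between the genotypes, because 0 genes passed the test of the difference itself. Single arrays moved these counts: without the first P2 Htr3a-KO array 2517 genes passed in Htr3a-KO, and without the first E18.5 control array 1823 passed in controls.

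**Figure D1:**
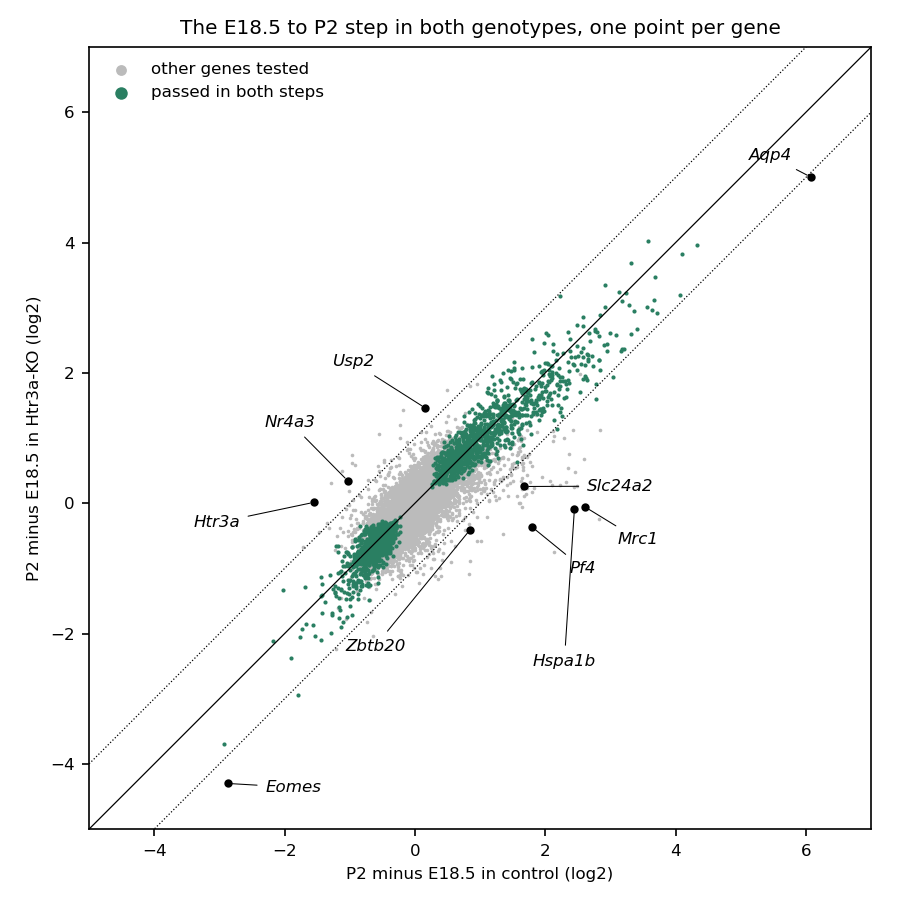
Change from E18.5 to P2 in controls (x axis, log2) against the same change in Htr3a-KO (y axis, log2), with 1 point for each of 14292 genes. The solid line marks equal steps and the dotted lines a genotype difference of 1 in either direction. The 2009 genes that passed in both steps (green) lie along the solid line. Passing in both steps favours a place near that line, and named genes lie far from it.

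Genes that stood apart between the ages in both genotypes were counted over single arrays. For 3241 genes (22.7%) the 3 arrays of each age did not overlap in either genotype and the direction was shared. For 43 genes (0.301%) they did not overlap and the directions were opposite, with the control lower and the Htr3a-KO higher at P2 for 32 (0.224%) and the reverse for 11 (0.077%). Prtg, Zbtb20, Pla2g10, Nectin4, Plb1, Coq10b and Aif1 were among the 43. Of these, Nectin4 and Aif1 read close to or under the filter level of 5.255 on some arrays. With 3 arrays in each group, some genes separate in this way without any true change. How many of the 43 did so was not tested, so the count does not show opposite steps.

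Among genes with differences above 0, Usp2 had the second smallest unadjusted p. Usp2 encodes a deubiquitinase that acts on cyclins and on proteins of the circadian clock. Its level in E18.5 controls was 9.19, 8.66 and 8.77, and in E18.5 Htr3a-KO 7.81, 8.45 and 7.73. At P2 it was 8.98, 8.95 and 9.17 in controls and 9.73, 9.37 and 9.27 in Htr3a-KO. The genotypes did not overlap at either age, with Htr3a-KO lower at E18.5 and higher at P2. Usp2 rose by 1.46 in Htr3a-KO (adjusted p = 6.05e-05), while the control step was 0.16 (adjusted p = 0.587). The difference was 1.30 (SE 0.25, 95% interval 0.76 to 1.84, adjusted p = 0.644), and a second probe set gave 1.69 (SE 0.49).

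H2-Aa, the alpha chain of an MHC class II molecule that presents peptides on antigen-presenting cells, had the smallest unadjusted p of all genes. It read 5.54, 5.40 and 5.41 in E18.5 controls and 5.38, 5.34 and 5.40 in E18.5 Htr3a-KO, close to the filter level of 5.255. At P2 it read 5.42, 5.69 and 5.54 in controls and 6.09, 6.13 and 6.35 in Htr3a-KO. Only the P2 Htr3a-KO arrays stood above the others. The gene rose by 0.82 in Htr3a-KO (adjusted p = 5.05e-05) and the difference was 0.72 (SE 0.14, 95% interval 0.42 to 1.01, adjusted p = 0.644).

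Coq10b, which encodes a coenzyme Q binding protein of mitochondria, went in opposite directions without overlap. Levels were 9.86, 9.03 and 9.15 in E18.5 controls against 8.83, 8.89 and 8.66 at P2, and 8.52, 8.53 and 8.44 in E18.5 Htr3a-KO against 9.38, 8.71 and 8.86 at P2. Neither step of Coq10b passed the test (adjusted p = 0.0533 in controls and 0.0681 in Htr3a-KO, limma). The difference was 1.04 (SE 0.27), and a second probe set gave 0.67. Nectin4, an adhesion molecule, gave 1.03 (SE 0.26), from 5.93, 6.42 and 6.05 to 5.70, 5.73 and 5.87 in controls and from 5.27, 5.66 and 5.52 to 6.58, 5.89 and 5.96 in Htr3a-KO.

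Grem1, which encodes an antagonist of bone morphogenetic proteins, read 7.15, 6.81 and 6.61 in E18.5 controls and 5.77, 6.04 and 5.79 in P2 controls. In Htr3a-KO it read 6.30, 6.03 and 6.31 at E18.5 compared with 6.14, 5.88 and 5.93 at P2. E18.5 controls lay above all other arrays. Grem1 fell by 0.99 in controls (adjusted p = 2.05e-04), the Htr3a-KO step was -0.23 (adjusted p = 0.224), and the difference was 0.76 (SE 0.20). Notum, a secreted enzyme that inactivates Wnt proteins, read 6.54, 5.93 and 6.0 in P2 Htr3a-KO against 5.54, 5.42 and 5.65 in P2 controls and 5.07 to 5.21 at E18.5. All E18.5 arrays of Notum were under the filter level of 5.255, so its difference of 0.71 was measured from background. The remaining genes of the upper 12 were Prtg (0.57), Zap70 (0.57), Pla2g10 (0.59), Plb1 (0.48) and Tmem89 (0.46), all small shifts on the log2 scale, and each had an adjusted p of 0.644.

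Among genes with differences below 0, Slc24a2 had the second smallest unadjusted p. Slc24a2 encodes a sodium, potassium and calcium exchanger of neurons. Its levels were 6.28, 6.11 and 6.28 in E18.5 controls and 7.30, 7.29 and 7.01 in E18.5 Htr3a-KO. They were 8.09, 7.56 and 8.06 in P2 controls and 6.80, 7.85 and 7.72 in P2 Htr3a-KO. The genotypes did not overlap at E18.5, when Htr3a-KO was higher, and overlapped at P2. The gene rose by 1.68 in controls (adjusted p = 1.03e-04), the Htr3a-KO step was 0.26 (adjusted p = 0.39), and the difference was -1.42 (SE 0.31, 95% interval -2.08 to -0.77, adjusted p = 0.644). A second probe set gave 0.32, so the probe sets of Slc24a2 disagreed in direction.

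Zbtb20, a zinc finger repressor of transcription in developing cortex and hippocampus, was measured by many probe sets, which shared a direction. It read 10.23, 9.98 and 9.91 in E18.5 controls and 10.88, 10.71 and 11.32 in E18.5 Htr3a-KO. At P2 it read 11.36, 10.82 and 10.48 in controls and 10.44, 10.62 and 10.63 in Htr3a-KO. Levels were lower in controls than in Htr3a-KO at E18.5 without overlap, and the groups overlapped at P2. Zbtb20 rose by 0.85 in controls (adjusted p = 0.0122), the Htr3a-KO step was -0.41 (adjusted p = 0.165), and the difference was -1.25 (SE 0.30, 95% interval -1.90 to -0.61, adjusted p = 0.644). All 9 of its probe sets past the filter lay below 0, from -0.68 to -1.41.

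Rlf, a zinc finger protein, read 9.22, 9.13 and 9.40 in E18.5 Htr3a-KO and 7.93 to 8.72 in the other groups, so those 3 arrays stood above all others. Its difference was -0.91, but further probe sets gave 0.16 and -0.06. The other transcripts of the lower 12 were Zfp946 (-0.72), Zfp937 (-0.85), Zfp760 (-0.70) and Zfp182 (-0.82), which belong to the zinc finger family, H3f3a (-1.08), which encodes a replacement histone, Dhx30 (-0.61), an RNA helicase, and Agbl5 (-0.72), an enzyme that trims tubulin tails. Zfp946 fell by 0.97 in Htr3a-KO (adjusted p = 2.13e-05) and its control step was -0.25 (adjusted p = 0.102). Across both groups of 12, 10 genes had further probe sets past the filter, and 3 of those 21 probe sets had the opposite sign.

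**Figure D2:**
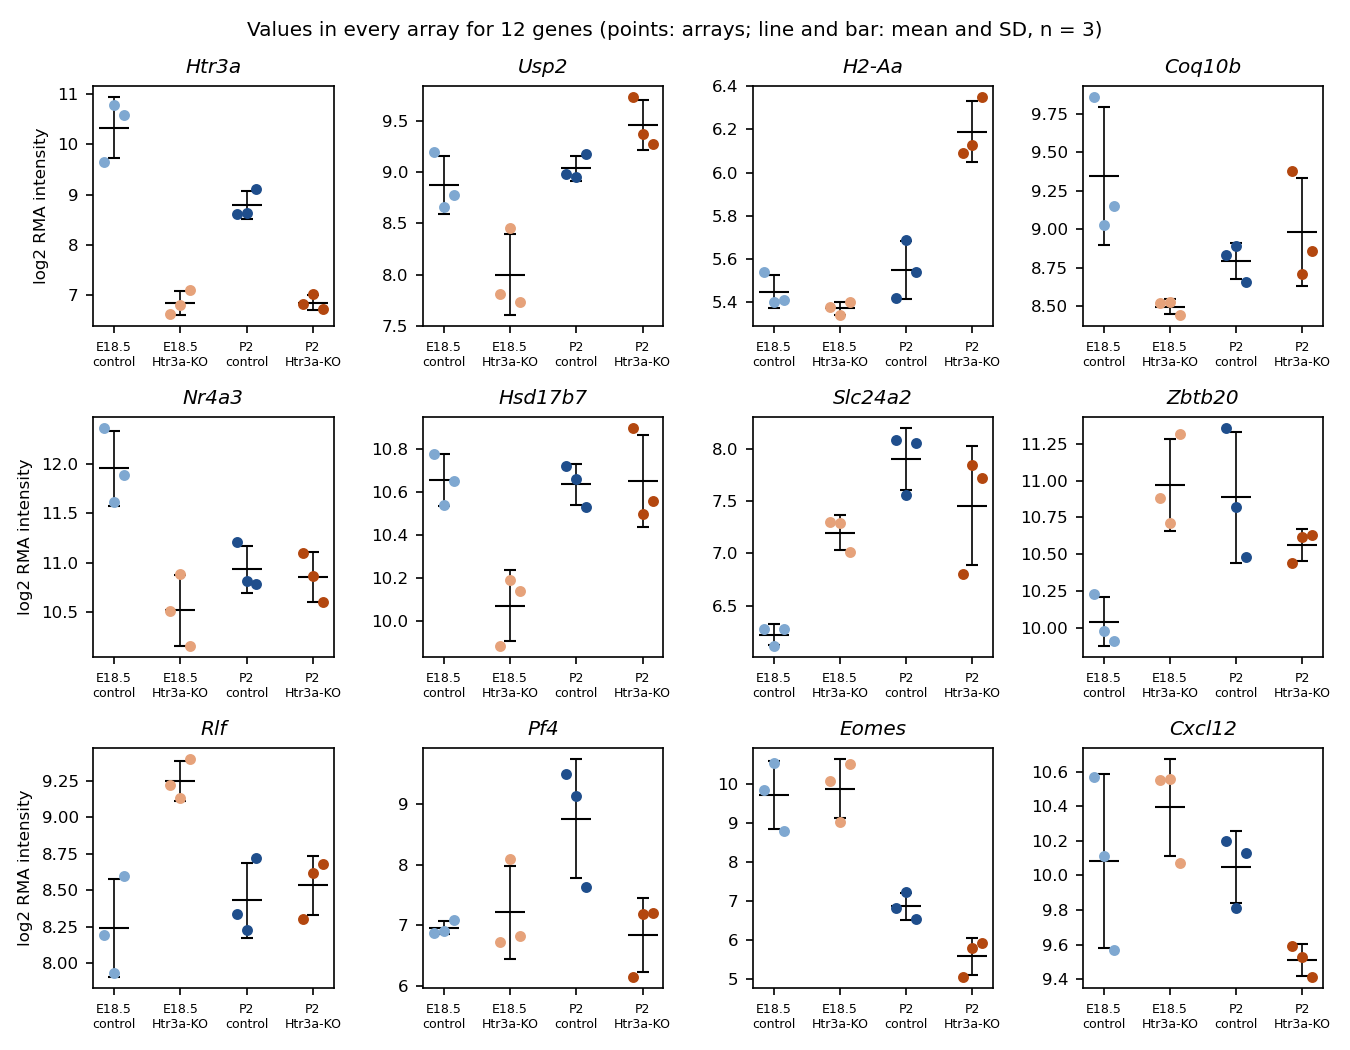
Log2 RMA intensity of 12 genes in every array of the E18.5 and P2 groups; points are arrays, and the black line and bar are the mean and SD of 3 arrays. Htr3a-KO arrays of Usp2 lie below controls at E18.5 and above them at P2, while Slc24a2, Zbtb20 and Rlf are higher in Htr3a-KO at E18.5.

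**Figure D3:**
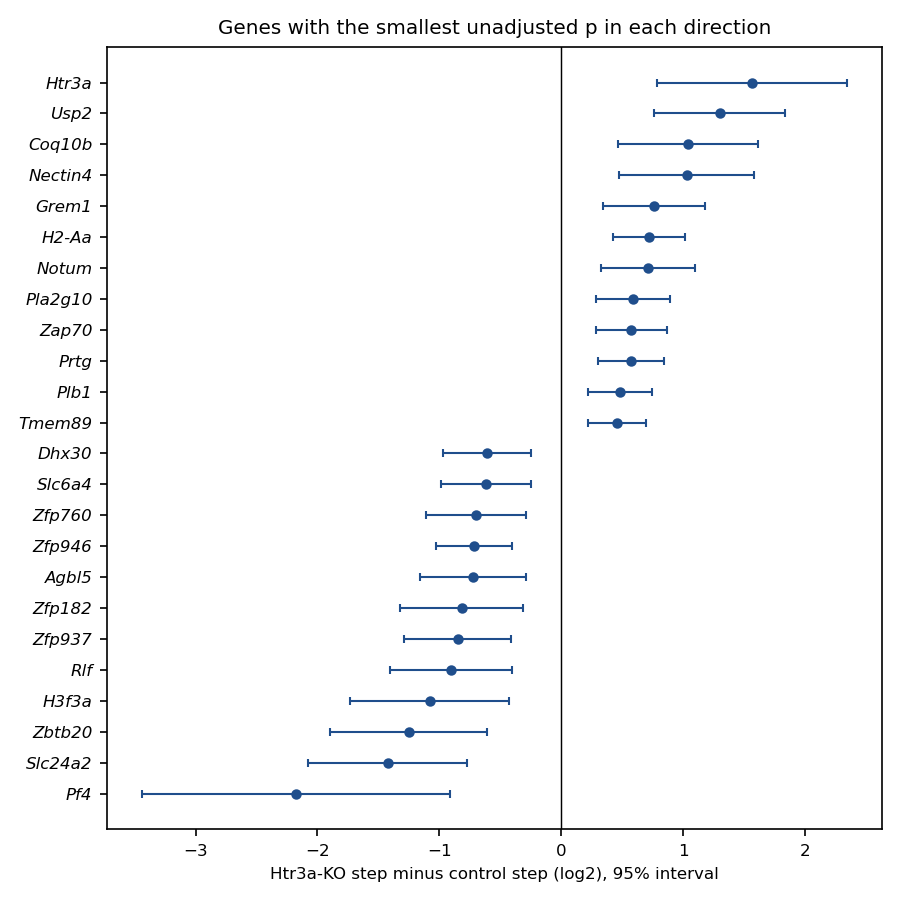
Genotype difference in the step (x axis, log2) with its 95% interval for Htr3a and the genes with the smallest unadjusted p in each direction. Genes were chosen by their unadjusted p, which fixes that the intervals exclude 0; the adjusted p was 0.644 for each.

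The genotypes at each age were compared directly as well, with arrays that the step comparison shares. Only 3 genes passed in the embryonic samples (0.021%) and 5 in the postnatal ones (0.035%). Single arrays moved these counts: leaving out 1 array gave 2 to 20 genes at E18.5, the highest without the third E18.5 control array, and at P2 0 without the third P2 Htr3a-KO array and 21 without the third P2 control array. With array weights 876 genes passed at E18.5. Htr3a, Lars2, the leucine-charging tRNA synthetase of mitochondria, and Pts, an enzyme of tetrahydrobiopterin synthesis, passed at both ages. Lars2 read 7.51 to 7.56 in controls and 8.75 to 8.94 in Htr3a-KO at E18.5, and 7.51 to 7.68 against 8.26 to 8.66 at P2, higher in Htr3a-KO by 1.29 and 0.83. Pts was lower in Htr3a-KO by 0.66 and 0.86 on the log2 scale. Dis3l, a subunit of the cytoplasmic RNA exosome, was lower by 0.82 and H2-Aa higher by 0.64 at P2. Lars2, Pts and Dis3l lie on chromosome 9, as Htr3a does, and H2-Aa lies on chromosome 17. Usp2, Prtg, Tmem89 and Dhx30, named above, also lie on chromosome 9, and the other genes of both groups of 12 lie elsewhere. The share of all tested genes on chromosome 9 was not counted, so these names do not show an excess there. Whether position on the chromosome of Htr3a had a part in these values was not tested. Genotype differences in the step were -0.45 for Lars2 (SE 0.18, adjusted p = 0.686; further probe sets 0.13 and 0.14), -0.20 for Pts (adjusted p = 0.781) and -0.14 for Dis3l (adjusted p = 0.874).

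Serotonin-related genes were sparse on these arrays. Of 19 listed genes 10 were below the filter, and of the 8 tested 6 lay above 0 and 2 below, with a median of 0.20 against 0.01 over all genes. Slc6a4, the transporter that takes up serotonin, read 5.39, 5.40 and 5.65 in E18.5 controls and 6.42, 6.14 and 5.93 in P2 controls. In Htr3a-KO it read 5.65, 5.60 and 5.74 at E18.5 compared with 5.67, 5.86 and 5.66 at P2. P2 controls stood above all other arrays. The E18.5 values lay near the filter level of 5.255, so the difference was measured from near background. Slc6a4 rose by 0.68 in controls (adjusted p = 0.00142), the Htr3a-KO step was 0.07 (adjusted p = 0.71), and the difference was -0.62 (SE 0.17, adjusted p = 0.644).

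Interneuron identity genes showed no shared direction. Among 11 tested GABAergic genes 5 lay above 0 and 6 below, with a median of -0.01. Gad1 gave 0.55 (95% interval -0.35 to 1.45) and Gad2 -0.01 (-1.32 to 1.31), intervals that leave a 2-fold difference possible. Of 25 tested CGE markers 15 lay above 0 and 10 below, with a median of 0.13, and without the first P2 control array the median was -0.08. In controls 3 of them rose and 1 fell, against 9.96% and 9.75% of all genes. In Htr3a-KO 7 rose and 0 fell, against 13.5% and 15% of all genes. Vip, a neuropeptide of 1 CGE subtype, read 5.42, 5.87 and 5.64 in E18.5 controls and 7.50, 7.52 and 7.28 in P2 controls. Its Htr3a-KO values were 5.09, 5.77 and 5.71 before birth and 9.11, 7.20 and 7.82 after it. Vip rose by 1.79 in controls (adjusted p = 0.00236) and by 2.52 in Htr3a-KO (adjusted p = 1.61e-04), with a difference of 0.73 that was 0.20 without the first P2 Htr3a-KO array. Cxcl14, a chemokine of CGE-derived interneurons, read 6.54, 7.46 and 7.26 in E18.5 controls, 7.61, 7.68 and 8.50 in P2 controls, 6.73, 6.87 and 6.45 in E18.5 Htr3a-KO and 9.0, 8.17 and 8.27 in P2 Htr3a-KO. It rose by 1.80 in Htr3a-KO (adjusted p = 0.00111), the control step was 0.84 (adjusted p = 0.079), and the difference was 0.95 (SE 0.46, adjusted p = 0.70). Of 14 tested markers of interneurons from the medial ganglionic eminence, 6 lay above 0 and 8 below (median -0.13).

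Plxna4, Sema3a and Nrp1, genes of semaphorin signalling, had lower values at P2 in both genotypes. Plxna4, a plexin that transduces semaphorin signals, read 10.53, 9.92 and 10.60 in E18.5 controls and 9.82, 9.77 and 9.84 in P2 controls. The Htr3a-KO arrays read 10.89, 10.25 and 10.35 at E18.5 compared with 9.49, 9.82 and 9.70 at P2. The ages did not overlap in either genotype. Plxna4 fell by 0.83 in Htr3a-KO (adjusted p = 0.0246), the control step was -0.54 (adjusted p = 0.151), and the difference was -0.29 (SE 0.36, 95% interval -1.05 to 0.48, adjusted p = 0.874). A second probe set of Plxna4 gave 0.91 at an unadjusted p of 0.0115, so its direction depended on the probe set. Sema3a, a secreted semaphorin, fell by 1.01 in controls (adjusted p = 0.0105) and by 1.19 in Htr3a-KO (adjusted p = 0.00301), a difference of -0.18 (95% interval -0.93 to 0.57). Nrp1, the neuropilin that binds it, fell by 1.23 (adjusted p = 0.00957) and by 1.37 (adjusted p = 0.00379), a difference of -0.14 (95% interval -1.03 to 0.75).

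Of 36 tested semaphorins, plexins, neuropilins and their effectors, 12 lay above 0 and 24 below, with a median of -0.12. At an unadjusted p under 0.05, 3 lay below 0, against 2.67% of all genes. Without the first P2 Htr3a-KO array the median was -0.02. In controls 7 rose and 4 fell, against 9.96% and 9.75% of all genes, and in Htr3a-KO 6 rose and 9 fell, against 13.5% and 15%. Plxna2, another plexin, fell by 1.07 in Htr3a-KO (adjusted p = 0.00601) with a control step of -0.21 (adjusted p = 0.624). The difference was -0.87 (SE 0.36, adjusted p = 0.686), or -0.55 without the first P2 Htr3a-KO array. Among 39 tested further guidance and motility genes 12 lay above 0 and 27 below, with a median of -0.29 that was -0.07 without the first P2 Htr3a-KO array. In controls 3 rose and 6 fell, against 9.96% and 9.75% of all genes. In Htr3a-KO 4 rose and 13 fell, against 13.5% and 15%.

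Cxcl12, the chemokine that holds migrating interneurons in their streams, read 10.57, 10.11 and 9.57 in E18.5 controls and 10.20, 9.81 and 10.13 in P2 controls. Htr3a-KO levels were 10.55, 10.56 and 10.07 at E18.5 compared with 9.59, 9.53 and 9.41 at P2. The P2 Htr3a-KO arrays lay below all P2 controls, and at E18.5 the genotypes overlapped. Cxcl12 fell by 0.88 in Htr3a-KO (adjusted p = 0.00457), and the difference was -0.85 (SE 0.28, adjusted p = 0.644). Further probe sets of Cxcl12 gave 0.36 and 0.17, and the average over its probe sets was -0.11, so the direction rested on the brightest probe set. Slit2, a secreted repellent, fell by 0.59 in Htr3a-KO (adjusted p = 0.0134) against a control step of 0.02 (adjusted p = 0.952), a difference of -0.61 (SE 0.23). Its receptor Robo2 had the lowest value of this list, -1.21 (SE 0.54), from 6.39, 6.16 and 6.68 to 6.30, 6.05 and 7.25 in controls and from 7.84, 7.53 and 7.40 to 5.50, 7.04 and 6.98 in Htr3a-KO. Robo2 was higher in Htr3a-KO at E18.5 without overlap, and the first P2 Htr3a-KO array was its lowest value; without that array the difference was -0.70. Migration machinery genes, such as cytoskeletal regulators, were more evenly placed, with 16 above 0 and 21 below (median -0.04). Srgap2, an effector of Slit and Robo signals, gave -0.44, and Lrp8, a reelin receptor, -0.56. Further probe sets gave 0.17 and 0.29 for Srgap2 and 0.10 and 0.37 for Lrp8, all of the opposite sign.

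Receptor and channel genes of neurons lay mostly below 0. Of 23 tested GABA and glutamate receptor genes 7 were above 0 and 16 below (median -0.27), and of 30 voltage-gated channel genes 6 were above and 24 below (median -0.31). Without the second E18.5 control array the receptor median was -0.11, and without the first P2 Htr3a-KO array the channel median was -0.18. Grin2d, an NMDA receptor subunit, rose by 0.77 in Htr3a-KO (adjusted p = 0.0131) against a control step of -0.09, a difference of 0.86 (SE 0.29). Grin2b, another NMDA receptor subunit, read 9.64, 9.66 and 9.71 in E18.5 controls against 10.49, 10.67 and 10.13 in E18.5 Htr3a-KO, and at P2 10.53, 9.26 and 10.07 against 8.75, 10.30 and 9.66, a difference of -1.14 (SE 0.48). Further Grin2b probe sets gave -0.09, 0.36 and 0.45, and their average with it was -0.11, so the probe sets disagreed. The kainate receptor subunit Grik3 gave -0.68 on 1 probe set and 0.30 on another. Kcnip1, a potassium channel partner, rose by 0.80 in Htr3a-KO (adjusted p = 0.00508), with a difference of 0.65 (SE 0.26). Its further probe sets past the filter gave 0.97, -0.27 and 0.30. Scn2a, a sodium channel, gave -1.31 (SE 0.61) and the calcium channel Cacna1e -1.08 (SE 0.49), each with the first P2 Htr3a-KO array lowest in its group. Without that array Scn2a gave -0.86, and further probe sets of Scn2a past the filter gave -0.91 and 0.28.

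Cadherins and protocadherins had 3 members above 0 and 20 below (median -0.24, or -0.10 without the first P2 Htr3a-KO array). Cdh9 read 7.27, 6.35 and 7.75 in E18.5 controls, 9.17, 8.25 and 8.74 in P2 controls, 8.29, 8.03 and 7.44 in E18.5 Htr3a-KO and 6.87, 8.62 and 8.26 in P2 Htr3a-KO. It rose by 1.60 in controls (adjusted p = 0.0119), the Htr3a-KO step was 0.00 (adjusted p = 0.997), and the difference was -1.60 (SE 0.57, adjusted p = 0.672). Without the first P2 Htr3a-KO array the difference for Cdh9 was -1.08. Synaptic genes were near balance, with 12 above 0 and 17 below (median -0.05). Of the 29, 0 reached an unadjusted p under 0.05, against 7.23% of all genes.

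Genes of the excitatory lineage had more negative steps in Htr3a-KO, by value, than in controls. Of the 19 tested, 10 fell in controls, against 9.75% of all genes. In Htr3a-KO 13 fell and 1 rose, against 15% and 13.5%. The median step was -0.80 in controls and -1.72 in Htr3a-KO. Genotype differences lay below 0 for 16 and above 0 for 3, with 0 past the test. At an unadjusted p under 0.05, 3 lay below 0, against 2.67% of all genes. Eomes, a transcription factor of intermediate progenitors of excitatory neurons, read 9.84, 10.54 and 8.81 in E18.5 controls and 6.81, 7.23 and 6.54 in P2 controls. In Htr3a-KO it read 10.08, 9.04 and 10.53 at E18.5 compared with 5.04, 5.80 and 5.91 at P2. The P2 Htr3a-KO arrays lay below the P2 controls without overlap. The difference was -1.43 (SE 0.58, adjusted p = 0.686), and a second Eomes probe set gave -0.20.

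Insm1, a factor of newborn neurons and their progenitors, fell by 1.79 in controls (adjusted p = 3.55e-04) and had a step of -2.94 in Htr3a-KO (adjusted p = 7.2e-06), a difference of -1.14. Tbr1, a factor of deep-layer excitatory neurons, gave -1.40 (SE 0.60), or -0.74 without the first P2 Htr3a-KO array, and its P2 Htr3a-KO arrays read 6.77, 9.0 and 8.55. The list's mean on those arrays was 7.31, 8.08 and 8.03, against 8.16 to 8.32 in P2 controls, so all were lower and the first was lowest. Its median difference of -0.47 was -0.27 without that array. Striatal projection neuron genes had 3 above 0 and 12 below (median -0.56), and without the second E18.5 control array the median was -0.36. Meis2, a transcription factor of the developing striatum, gave -0.80, and all 4 of its probe sets lay below 0. Ikzf1, a factor of striatal neurons and of blood and immune cells, gave -1.16, but a second probe set gave 0.32. Its P2 control arrays read 7.16, 6.22 and 6.03, in the same order as the microglia and macrophage list on those arrays, and the part of such cells in its value was not tested.

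Astrocyte, oligodendrocyte and progenitor genes were measured as markers of other cells. Of 17 tested astrocyte genes 14 rose in each genotype, against 9.96% of all genes in controls and 13.5% in Htr3a-KO. Their differences were split 8 above and 9 below 0 (median -0.01). Leaving out single arrays moved this median between -0.29, without the first P2 control array, and 0.09. Alternatives in processing took it as low as -0.305. Aqp4, the water channel of astrocytes, read 3.60, 4.17 and 5.91 in E18.5 controls, 9.78, 11.11 and 11.02 in P2 controls, 6.28, 6.38 and 6.07 in E18.5 Htr3a-KO and 11.62, 10.83 and 11.29 in P2 Htr3a-KO. It rose in controls (adjusted p = 1.25e-06) and in Htr3a-KO (adjusted p = 7.2e-06). Since 2 of 3 E18.5 control arrays were under the filter level of 5.255, the difference of -1.07 (SE 0.65) was measured from background, and a second probe set gave 0.64. E18.5 Htr3a-KO arrays were above E18.5 controls.

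Of 17 oligodendrocyte lineage genes 16 rose in controls and 11 in Htr3a-KO, against 9.96% and 13.5% of all genes. Their differences lay below 0 for 15 and above for 2 (median -0.29). Without the first E18.5 control array, whose list mean was 8.36 against 8.97 and 8.98, the median was -0.08. Vcan, a proteoglycan of oligodendrocyte precursors, gave -0.66 (SE 0.22, adjusted p = 0.644), while further probe sets gave -0.16 and 0.52 and the average over Vcan probe sets past the filter was -0.10. Bcas1, of newly formed oligodendrocytes, gave -1.0 (SE 0.43), and its further probe sets -0.10 and 0.08. Radial glia and neural progenitor genes had 4 above 0 and 17 below (median -0.36). Of the 21 tested, 13 rose in controls and 9 in Htr3a-KO, against the same 9.96% and 13.5%. Without the first E18.5 control array the median was -0.11. Hes5, a Notch target, read 7.65, 9.44 and 9.03 in E18.5 controls and 10.24, 10.12 and 10.58 in E18.5 Htr3a-KO, and at P2 10.57, 11.05 and 11.35 against 11.52, 10.84 and 11.58. It was higher in Htr3a-KO at E18.5 without overlap, and its difference was -1.28 (SE 0.69), or -0.76 without the first E18.5 control array; a second probe set gave -0.25. The mean of the progenitor list was 8.88 to 9.67 in E18.5 controls and 9.85 to 10.19 in E18.5 Htr3a-KO, and it overlapped at P2. Cell cycle genes had 5 above 0 and 24 below (median -0.25), with Mki67, a proliferation marker, at -0.73. Of the 29, 0 reached an unadjusted p under 0.05, against 7.23% of all genes. Without the third E18.5 Htr3a-KO array, whose list mean was 10.19 against 9.58 and 9.41, the cell cycle median was -0.04.

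Microglia and macrophage genes had the most extreme list median. All 20 tested lay below 0, and the median was -1.56. At an unadjusted p under 0.05, 4 of them lay below 0, against 2.67% of all genes. In controls 5 of the 20 rose, against 9.96% of all genes. In Htr3a-KO 0 rose and 0 fell, against 13.5% and 15%. The median step was 1.72 in controls and 0.28 in Htr3a-KO. Mrc1, a mannose receptor of brain macrophages, read 6.69, 5.55 and 6.01 in E18.5 controls and 9.99, 8.72 and 7.35 in P2 controls. In Htr3a-KO it read 6.13, 7.47 and 5.76 at E18.5 compared with 5.88, 6.87 and 6.45 at P2. P2 controls lay above the other groups except for 1 E18.5 Htr3a-KO array. Mrc1 rose by 2.60 in controls (adjusted p = 0.0064), the Htr3a-KO step was -0.05 (adjusted p = 0.954), and the difference was -2.66 (SE 0.83, adjusted p = 0.644).

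Pf4, a chemokine made by platelets and by macrophages at the brain borders, read 9.50, 9.14 and 7.64 in P2 controls and 6.14, 7.19 and 7.20 in P2 Htr3a-KO, against 6.88, 6.91 and 7.08 and 6.72, 8.10 and 6.82 at E18.5. It rose by 1.80 in controls (adjusted p = 0.00759), and the difference was -2.17 (SE 0.59, adjusted p = 0.644). Aif1, which encodes the microglial protein Iba1, gave -1.82. Its E18.5 controls read 5.02, 4.35 and 5.37, around the filter level of 5.255, so this value was measured from background. The list's mean was 9.74, 8.24 and 7.06 in the P2 controls and 6.75 to 7.35 in the P2 Htr3a-KO arrays, so the first control array was far above the rest and the third lay within the Htr3a-KO range. Without that first array the list's median was -0.72.

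Stress and immediate early genes had no shared direction. Of 40 tested, 26 lay above 0 and 14 below (median 0.15), and without the first P2 Htr3a-KO array the median was -0.01. In controls 12 rose and 3 fell, against 9.96% and 9.75% of all genes. In Htr3a-KO 14 rose and 2 fell, against 13.5% and 15%. Nr4a3, an orphan nuclear receptor induced by activity, read 12.37, 11.62 and 11.89 in E18.5 controls and 11.21, 10.81 and 10.78 in P2 controls. The corresponding Htr3a-KO values were 10.51, 10.88 and 10.15 at E18.5 compared with 11.10, 10.86 and 10.60 at P2. E18.5 controls lay above all other arrays. Nr4a3 fell by 1.03 in controls (adjusted p = 0.0149), and the difference was 1.37 (SE 0.38, adjusted p = 0.644), with 0.29 on a second probe set. The clock gene Per1 gave 0.66 (SE 0.23). Hspa1b, an inducible heat shock protein, read 12.46, 11.68 and 8.94 in P2 controls and 8.16 to 10.23 in the other groups; it gave -2.54 (SE 0.97, adjusted p = 0.681), and 2 of 3 P2 controls made up its control rise of 2.45 (adjusted p = 0.0206).

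Cholesterol synthesis genes lay mostly above 0. Neurons and glia make their own cholesterol behind the blood-brain barrier, and the enzymes of the pathway are switched on together by the transcription factor encoded by Srebf2, which acts with the factor NF-Y at CCAAT boxes. Promoters of 4 members at or above 0.41 are printed here to show what their start regions share. They run from 250 bases before to 50 bases after the start in RefSeq, build GRCm38.p6, and capitals mark CCAAT or its reverse complement ATTGG. Hsd17b7 lies at chr1:169969156-169969455, minus strand, Sc5d at chr9:42264251-42264550, minus strand, Msmo1 at chr8:64733529-64733828, minus strand, and Srebf2 at chr15:82147019-82147318, plus strand.
Hsd17b7: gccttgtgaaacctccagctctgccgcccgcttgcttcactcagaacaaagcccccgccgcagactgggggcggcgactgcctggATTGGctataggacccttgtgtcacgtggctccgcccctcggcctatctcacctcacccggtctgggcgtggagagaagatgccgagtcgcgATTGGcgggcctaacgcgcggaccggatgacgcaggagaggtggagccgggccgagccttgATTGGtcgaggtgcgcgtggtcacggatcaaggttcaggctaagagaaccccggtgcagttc
Sc5d: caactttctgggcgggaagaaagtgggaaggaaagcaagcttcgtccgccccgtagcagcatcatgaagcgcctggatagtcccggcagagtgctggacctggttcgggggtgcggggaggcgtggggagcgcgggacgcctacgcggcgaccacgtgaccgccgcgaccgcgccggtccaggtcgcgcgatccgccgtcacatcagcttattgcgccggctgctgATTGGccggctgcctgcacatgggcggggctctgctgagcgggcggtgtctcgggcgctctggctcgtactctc
Msmo1: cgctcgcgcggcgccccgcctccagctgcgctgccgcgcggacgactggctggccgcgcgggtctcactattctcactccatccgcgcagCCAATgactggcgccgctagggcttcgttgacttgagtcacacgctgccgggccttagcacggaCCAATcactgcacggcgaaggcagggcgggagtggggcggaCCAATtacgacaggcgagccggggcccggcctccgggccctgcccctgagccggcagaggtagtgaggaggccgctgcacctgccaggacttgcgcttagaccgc
Srebf2: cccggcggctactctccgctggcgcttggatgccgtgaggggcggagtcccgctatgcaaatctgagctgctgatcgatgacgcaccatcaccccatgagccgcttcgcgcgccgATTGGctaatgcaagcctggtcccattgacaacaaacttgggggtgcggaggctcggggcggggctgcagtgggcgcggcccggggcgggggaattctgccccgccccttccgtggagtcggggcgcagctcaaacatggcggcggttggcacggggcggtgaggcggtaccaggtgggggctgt

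Of the 19 tested genes of the list 16 had a promoter in the table, and all 16 held CCAAT on either strand, compared with 42.3% of 11474 tested genes with a promoter. The longer form CCAATC, which contains it, was in 14 of 16 against 22.8%. A sterol response sequence with 1 open base, TCACNCCAC, was in 1 of 16, against 1.49%, searched on both strands. A match describes the letters only.

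Of the 19 genes 15 lay above 0 and 4 below, with a median of 0.24 and 0 past the test. At an unadjusted p under 0.05, 4 lay above 0, against 4.55% of all genes. In controls 4 rose, and in Htr3a-KO 8 rose, against 9.96% and 13.5% of all genes. Hsd17b7, which reduces a sterol ketone late in the pathway, read 10.78, 10.54 and 10.65 in E18.5 controls and 9.88, 10.19 and 10.14 in E18.5 Htr3a-KO. At P2 it read 10.72, 10.66 and 10.53 in controls and 10.90, 10.50 and 10.56 in Htr3a-KO. The genotypes did not overlap at E18.5 and overlapped at P2. It rose by 0.58 in Htr3a-KO (adjusted p = 0.00284) against a control step of -0.02, a difference of 0.60 (SE 0.17, adjusted p = 0.644).

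Sc5d, a sterol desaturase, read 9.80, 9.19 and 9.62 in E18.5 controls, 9.02, 9.21 and 9.02 in E18.5 Htr3a-KO, 9.64, 9.81 and 9.62 in P2 controls and 10.22, 9.67 and 9.70 in P2 Htr3a-KO. It rose by 0.78 in Htr3a-KO (adjusted p = 0.00277), with a difference of 0.63 (SE 0.23). Msmo1, a sterol methyl oxidase, rose by 0.94 in Htr3a-KO (adjusted p = 0.00777), with a difference of 0.75 (SE 0.33). A second Msmo1 probe set gave -0.65 and the average of both was 0.05, and further Sc5d probe sets gave 0.18 and 0.11. Srebf2 itself gave 0.41 (SE 0.19), and its second probe set 0.34. The list's mean was 10.1 ± 0.10 in E18.5 controls and 9.89 ± 0.09 in E18.5 Htr3a-KO (SD, n = 3 each), without overlap between arrays, and the genotypes overlapped at P2. Leaving out single arrays moved the list's median between 0.13 and 0.34.

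**Figure D4:**
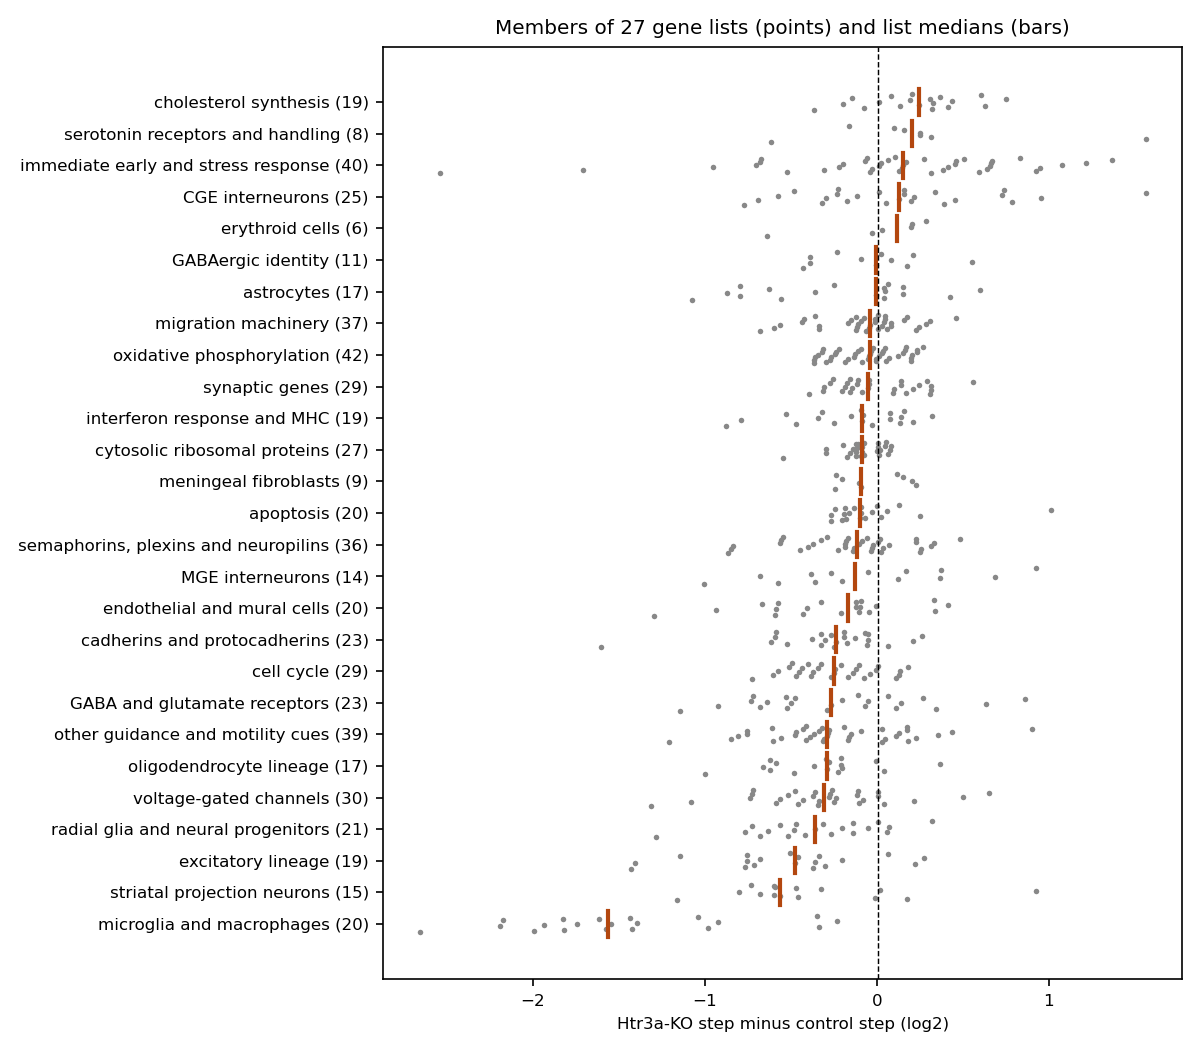
Genotype difference in the step (x axis, log2) for the tested members of 27 gene lists, given as points, with the list median as a bar, the number tested in brackets and the median of all genes as a dashed line. Microglia and macrophage genes lie lowest (median -1.56) and cholesterol synthesis genes highest (median 0.24).

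**Figure D5:**
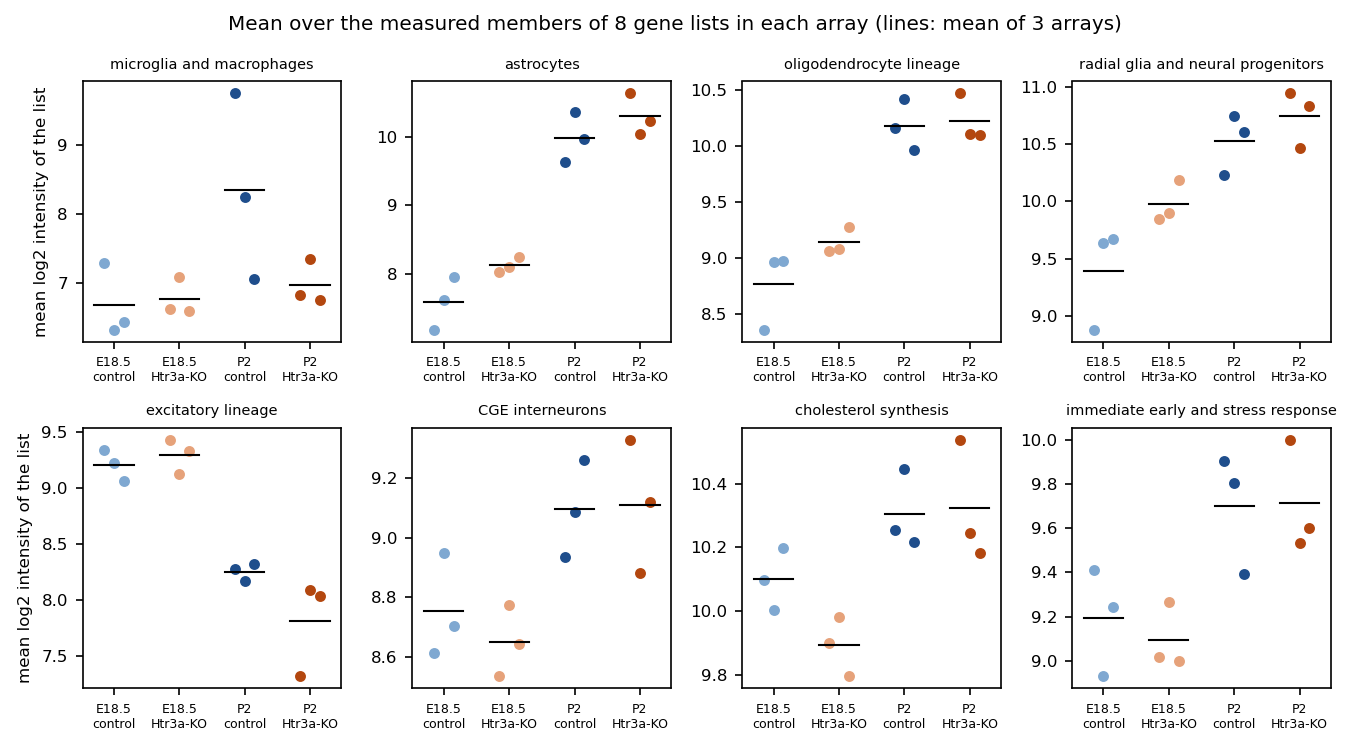
Mean log2 RMA intensity over the measured members of 8 gene lists in every array of the 4 groups; points are arrays and lines are means of 3 arrays. One P2 control array stands high for microglia and macrophages (9.74), and 1 P2 Htr3a-KO array stands low for the excitatory lineage (7.31).

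Apart from the sex-linked genes, the remaining lists had medians between -0.17 and 0.12. Interferon response and MHC genes had 7 above 0 and 12 below (median -0.08), and the lowest was H2-K1, an MHC class I chain, at -0.88 (SE 0.45). H2-K1 read 8.23, 7.96 and 7.68 in E18.5 controls and 9.88, 9.81 and 9.58 in E18.5 Htr3a-KO, and at P2 9.60, 9.17 and 8.79 against 9.75, 10.24 and 10.34. Htr3a-KO arrays were above controls at both ages without overlap, with a smaller gap at P2. Apoptosis genes had 6 above 0 and 14 below (median -0.10), and Pmaip1, a BH3-only death protein, was the highest at 1.01 (SE 0.68). Cytosolic ribosomal protein genes had 9 above and 18 below (median -0.09), and oxidative phosphorylation genes 16 above and 26 below (median -0.04). Endothelial and mural cell genes had 3 above and 17 below (median -0.17), meningeal fibroblast genes 4 above and 5 below (median -0.09), and erythroid genes 4 above and 2 below (median 0.12). Sex-linked genes, read because litters were pooled, had 1 above and 3 below 0, with a median of -1.04 that was 0.61 without the second E18.5 control array; the Y-linked Kdm5d read 3.05 on that array and 6.95 to 8.74 on the other arrays of the 4 groups.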

How the data were processed

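Arrays measured total RNA of sorted interneurons. Per the labels' design text, the authors scanned the arrays, analysed signals in Partek Genomic Suite 6.6 and normalised them by robust multi-array averaging, so the deposited values are log2 intensities. They were used as deposited.

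Of 45101 probe sets, 64 were controls, 34945 had 1 gene in the array's annotation, 932 several and 9160 none. The dimmest 30% of probe sets by mean over 18 arrays (under 5.255) were left out, and each gene was represented by its brightest remaining probe set. Groups came from the sample titles. Group means of 6 groups were fitted with limma 3.58.1 in R 4.3.3 (12 residual degrees of freedom), and the genotype difference in the step was tested with Benjamini-Hochberg adjustment over 14292 genes at 0.05. The fit was checked on simulated data. Array values carry no counts, so the number of arrays limits precision.

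Genes were named as follows: Htr3a, Plxna4, Sema3a, Nrp1, Gad1 and Gad2, the 12 genes with the smallest unadjusted p in each direction, passing over 2 and 5 numbered gene models, and the 2 such members of each of 28 lists. Another 11 genes were chosen after their values were seen: Lars2, Pts, Dis3l, Msmo1, Srebf2, Aif1, Tbr1, Hspa1b, Robo2, Scn2a and Vip. Members and lists were chosen with earlier results of these data known. Alternatives covered thresholds, filters, probe set choice, normalization, variance models, array weights, a replicate block, the 12 arrays alone and leaving out each array. After group means were taken out, 5 of 18 same-numbered pairs of arrays correlated over 0.1, in a range of -0.54 to 0.30. Pairs with different numbers were not compared, so this count cannot settle whether replicate numbers pair the arrays.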

Additional observations from a re-analysis of the deposited data

How the results depend on the processing

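The genotype difference gave 0 genes in every alternative tried with limma, with smallest adjusted p values down to 0.056, reached by Usp2 without the second E18.5 Htr3a-KO array. Counts at an unadjusted p under 0.05 ran from 626, without the first P2 Htr3a-KO array, to 3236 over every probe set. With a replicate block 0 genes passed, the smallest adjusted p was 0.739 and 935 genes were at an unadjusted p under 0.05. Whether replicate numbers pair these arrays was not settled. The control step gave 1694 genes at 1.5-fold or more, 4774 over every probe set, and 1823 to 3001 with single arrays left out, the lowest without the first E18.5 control array. The Htr3a-KO step gave 2137, 7136 and 2517 to 4211 in the same order, the lowest without the first P2 Htr3a-KO array. The genotype effect at E18.5 gave 16 genes at an adjusted p under 0.1, 5 with no filter, 14 with probe sets averaged by gene, 32 over every probe set, 876 with array weights, 8 with the replicate block and 2 to 20 without single arrays. At P2 it gave 9 over every probe set, 3 with quantile normalization, 3 with trended and robust variance, 8 with array weights, 8 with the replicate block, 1 with the 12 arrays alone and 0 to 21 without single arrays.

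Of 91 named genes 82 kept the sign of their difference in every alternative that gave 1 value per gene. Single probe sets were not part of this count, and some of these genes, such as Slc24a2 and Cxcl12, had further probe sets of the opposite sign. Most named genes were also chosen by their unadjusted p in these same arrays, which favours a kept sign. With probe sets averaged by gene the sign turned for Plxna4 (0.31), Sema3a (0.005), Gad2 (0.285), Gphn (-0.15) and Srgap2 (0.0067). With array weights it turned for Sema3a (0.15), Nrp1 (0.31), Fbln1 (-0.0034), Epor (-0.0369) and Kdm5d (0.0255). For Gad2 it turned with quantile normalization (0.0446) and median centring (0.0167). With single arrays left out, ranges were -0.42 to 0.13 for Sema3a, -0.39 to 0.21 for Nrp1, -0.35 to 0.23 for Gad2, -0.0183 to 0.42 for Fbln1 and -2.34 to 0.51 for Kdm5d. The cause was not tested.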
